A study of Mus musculus with 11 samples.

Results

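The genes examined here run the cholesterol economy of the cell. They comprise the enzymes that build cholesterol, the sensors that set the pace of synthesis, and the proteins that take sterol up, store it, export it and break it down. The list of 31 genes was drawn up by pathway membership, with earlier results of these data known. A gene was read by the probe set that carried its symbol alone, and where it had several, by the brightest over all arrays. By this rule 29 of the 31 had a probe set, among 19938 genes in all, and 28 of these lay above the filter on dim genes and were tested. Soat1, which makes cholesterol esters for storage, and Nr1h2, a sterol-sensing nuclear receptor, were not analysed here. Nr1h3, the partner receptor of Nr1h2, was below the filter (6.82 ± 0.06 in 5 Rarb-null arrays and 6.86 ± 0.05 in 6 WT arrays, mean log2 level ± SD) and has no test.

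The arrays were Affymetrix Mouse Gene 1.0 ST, 1 per mouse, and the tissue was the nucleus accumbens of the ventral striatum, punched so as to be rich in its shell. There were 5 Rarb-null mice, mutants without the retinoic acid receptor RARβ, and 6 wild-type (WT) littermates. All were males of 4 to 5 months with no behavioural testing, born to heterozygous parents on a mixed C57BL/6J and 129SvEms/j background, with no other treatment named in the labels. The labels name no cell type restriction of the deletion, and the titles and the protocol give the 2 group sizes the opposite way round, so the targeted gene was examined first. Rarb read 9.72 to 10.01 in the arrays labelled Rarb-null and 11.70 to 11.81 in those labelled WT, with no overlap (difference -1.86, SE 0.047, limma adjusted p = 4.44e-11), so the titles were used. Where its probes lie relative to the deleted part of the gene was not examined.

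Values are log2 expression after robust multi-array analysis (RMA). A difference is the Rarb-null mean minus the WT mean on that scale, and its standard error (SE), 95% interval and p come from limma fitted on all 11963 genes above the filter, with Benjamini-Hochberg adjustment over all of them. A gene with an adjusted p under 0.05 is called changed. In these bulk punches, fewer cells of a type and less RNA per cell cannot be told apart. Striatal projection neuron markers were high throughout (12 genes, mean level 11.59 to 11.71 in Rarb-null and 11.87 to 11.94 in WT arrays). Cortical neuron markers were present too and varied widely (9 genes, 8.30 to 9.00 in Rarb-null and 7.61 to 8.46 in WT arrays). Precision is set by the number of mice. The p-values weigh each difference against the spread between mice, which limma moderates across genes.

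Brain cholesterol is made locally, because plasma lipoproteins do not cross the blood-brain barrier, and oligodendrocytes and astrocytes make much of it. Synthesis runs from acetyl-CoA through mevalonate to squalene, and from squalene through lanosterol and a series of sterol intermediates to cholesterol. When sterols in the endoplasmic reticulum are low, the escort protein SCAP carries the transcription factors SREBP1 and SREBP2 to the Golgi for activation, and when sterols are high the INSIG proteins hold SCAP back. Excess cholesterol leaves cells through ABC transporters controlled by the LXR nuclear receptors, and neurons hydroxylate it so that it can leave the brain.

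Of the 28 genes tested, 4 were lower and 0 higher in Rarb-null accumbens: the late synthesis enzymes Dhcr7, Msmo1 and Sc5d, and the sterol sensor Insig1. The other 24 did not pass the test. Among them, an unadjusted p under 0.05 was found for Idi1, Npc1, Abca1 and Nsdhl, with differences below 0. It was also found for Fdft1 and Abcg4, with differences above 0. The share called was 14.3%, against 19.6% of all genes tested (2341 of 11963), so the share called in the group was not above the background of the array. Lower calls made up the same 14.3% of the cholesterol genes and 12% of all genes, and higher calls 0% and 7.56%. No Rarb-null value fell within the WT range for 3 of the 28 (Dhcr7, Msmo1 and Npc1, all lower), against 11.2% of all genes. The median difference of the 28 was -0.06, beside -0.02 over all genes tested, and all differences lay between -0.33 and 0.12. After subtraction of the array median over tested genes, 3 of the 28 were lower (Dhcr7, Msmo1 and Sc5d) and 2 higher (Fdft1 and Abcg4). Under this centring the calls over all genes were 939 lower and 1677 higher, against 1436 lower and 905 higher as deposited.

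**Figure D1:**
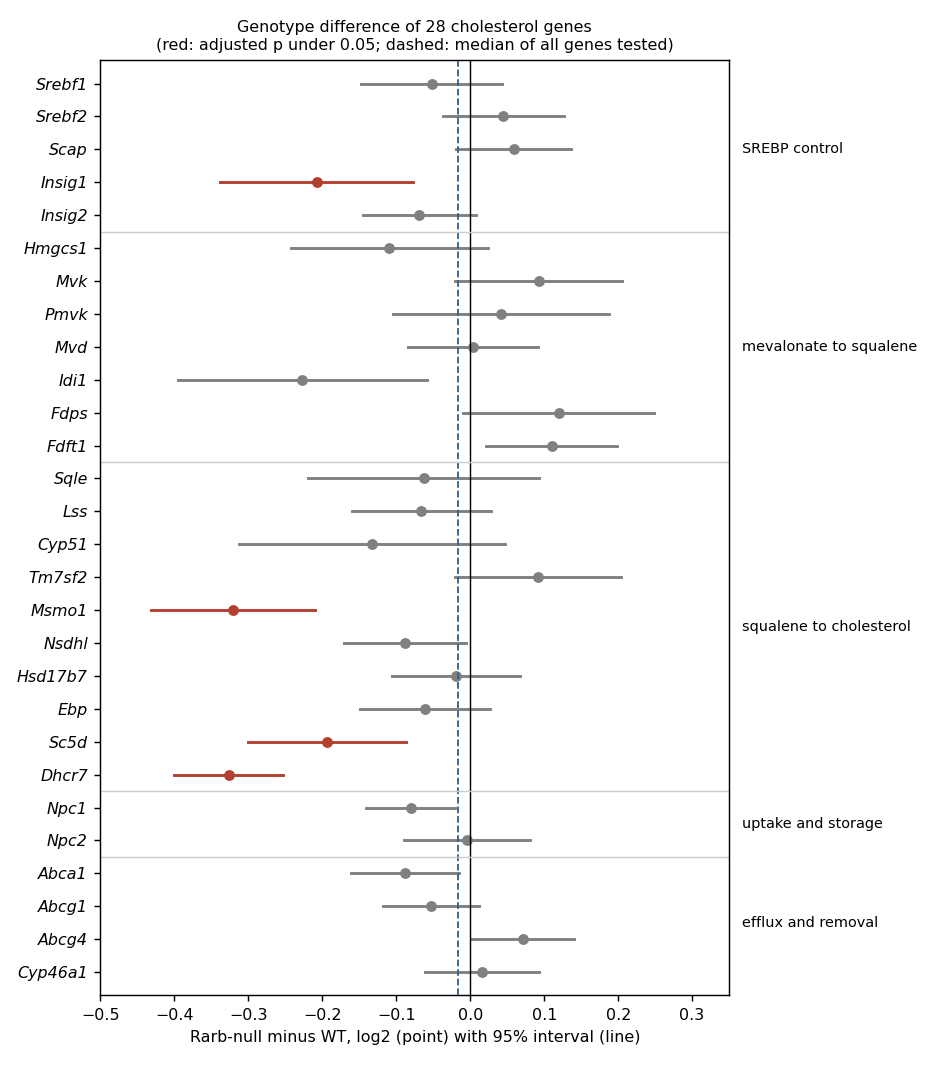
Difference in log2 expression (x axis, Rarb-null minus WT) of the 28 tested cholesterol genes (y axis, grouped by role), with 95% intervals from limma as lines; red marks an adjusted p under 0.05 and the dashed line the median of all genes tested (-0.02). The 4 red points, Insig1, Msmo1, Sc5d and Dhcr7, lie between -0.33 and -0.19, and the 7 mevalonate genes spread to both sides of 0.

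The second leg of synthesis, from squalene to cholesterol, held 3 of the 4 falls. Of its 10 genes, 3 fell, 0 rose and 7 did not pass, and 9 of the 10 differences were below 0 (median -0.08). Over all 11963 genes tested, 6840 differences were below 0 and 12% of genes were called lower. Whether this leg differs from other genes was not tested. Dhcr7 encodes the reductase of the last step, which turns dehydrocholesterol into cholesterol, and its loss in humans causes Smith-Lemli-Opitz syndrome. It read 8.85, 8.78, 8.88, 8.87 and 8.90 in the 5 Rarb-null arrays, against a lowest, median and highest value of 9.12, 9.18 and 9.26 in the 6 WT arrays. Every Rarb-null array lay below every WT array, with a gap wider than the spread within either genotype. The difference was -0.33 (SE 0.034, 95% interval -0.40 to -0.25, limma adjusted p = 2.38e-05), and on the linear scale the level fell by 20.3%.

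Msmo1, the methylsterol monooxygenase that starts the removal of the methyl groups left on the sterol after Cyp51 has acted, read 10.33, 10.23, 10.18, 10.20 and 10.35 in Rarb-null arrays, against 10.46, 10.60 and 10.71 (lowest, median, highest) in WT arrays. The genotypes again did not overlap. Its difference was -0.32 (SE 0.052, 95% interval -0.43 to -0.21, limma adjusted p = 0.000909), and the linear level fell by 19.9%. Sc5d, the desaturase that acts just before Dhcr7 and whose loss causes lathosterolosis in humans, read 9.99, 9.75, 9.74, 9.97 and 9.86 in Rarb-null arrays, against 9.99, 10.07 and 10.12 in WT arrays. Here the arrays met, since Rarb-null replicate 1 equalled the lowest WT array. Sc5d differed by -0.19 (SE 0.050, limma adjusted p = 0.0164), and the linear level fell by 12.6%.

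The other 7 genes of this leg did not pass. Cyp51, the lanosterol demethylase, had a difference of -0.13 (95% interval -0.31 to 0.05), with Rarb-null replicate 5 at 8.30 and the other Rarb-null arrays at 7.84 to 8.01, against 7.90 to 8.34 in WT arrays. When the 3 arrays with the most extreme cortical marker levels (Rarb-null replicate 5, WT replicates 3 and 4) were left out, Cyp51 was -0.27 (limma adjusted p = 0.0162). With the level of oligodendrocyte markers added to the fit it was 0.04 (limma adjusted p = 0.842). Nsdhl, a sterol dehydrogenase that works with Msmo1 on the methyl groups, had a difference of -0.09 (SE 0.038, limma adjusted p = 0.118). Squalene epoxidase Sqle (-0.06), lanosterol synthase Lss (-0.07), the sterol isomerase Ebp (-0.06) and the ketosteroid reductase Hsd17b7 (-0.02) were closer to 0. Tm7sf2, a sterol reductase, was the one gene of this leg with a difference above 0 (0.09, 95% interval -0.02 to 0.20).

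**Figure D2:**
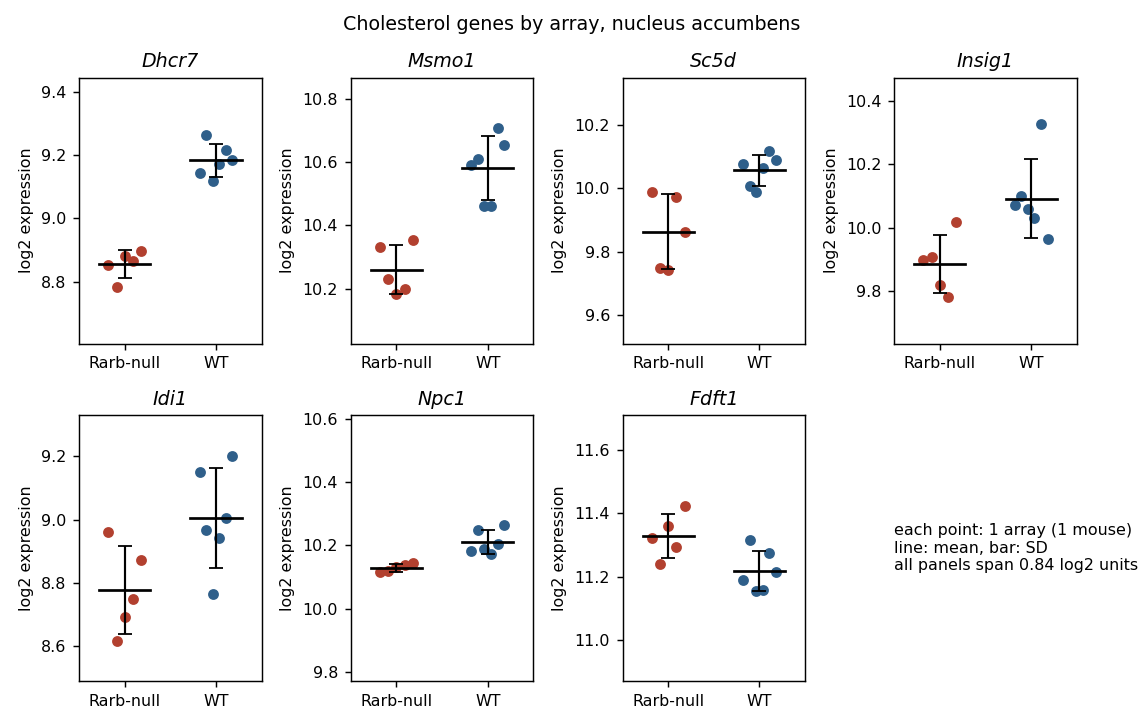
Log2 expression (y axis) on each array for the 4 called genes and the 3 uncalled genes with the smallest adjusted p, Rarb-null on the left (red, 5 arrays) and WT on the right (blue, 6 arrays); horizontal lines are means and bars SD, and every panel spans the same range. Dhcr7, Msmo1 and Npc1 show no overlap between genotypes, and Insig1, Idi1 and Fdft1 do.

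The first leg, from acetyl-CoA to squalene, showed 0 calls among 7 genes in limma (2 at an unadjusted p under 0.05, Idi1 and Fdft1) and no shared direction, with 5 differences above 0 and 2 below (median 0.04). Over all 11963 genes tested, 19.6% were called. Whether this leg differs from them or from the second leg was not tested. Hmgcs1, the synthase that commits acetyl-CoA to the pathway, had a difference of -0.11 (SE 0.062, 95% interval -0.24 to 0.02). Mevalonate kinase Mvk (0.09), phosphomevalonate kinase Pmvk (0.04) and the decarboxylase Mvd (0.0038) followed without passing. Idi1, the isomerase of the isoprenoid building blocks, read 8.96, 8.62, 8.69, 8.75 and 8.87 in Rarb-null arrays, against 8.76, 8.99 and 9.20 in WT arrays. Its values overlapped between genotypes and its spread was among the widest of the group (SD 0.14 in Rarb-null and 0.16 in WT arrays). The difference of -0.23 (SE 0.078) just missed the threshold (limma adjusted p = 0.0567). Averaged with a further probe set annotated to the same gene, where the difference was -0.26, Idi1 passed (limma adjusted p = 0.0462). It also passed without Rarb-null replicate 1 (-0.27, limma adjusted p = 0.0287) or without WT replicate 3 (-0.28, limma adjusted p = 0.019). In all, Idi1 was called in 7 of 24 alternatives, and in 2 of the 11 fits that left out 1 array (limma adjusted p up to 0.137). With arrays centred, or with any of the 3 marker levels as a covariate, it was not called.

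At the steps where isoprenoids turn to sterols both differences were above 0 without passing. Farnesyl diphosphate synthase Fdps was 10.12 ± 0.10 in Rarb-null and 10.00 ± 0.11 in WT arrays (difference 0.12, limma adjusted p = 0.17). Squalene synthase, encoded by Fdft1, read 11.32, 11.24, 11.36, 11.29 and 11.42 in Rarb-null arrays, against 11.15, 11.20 and 11.31 in WT arrays. The Rarb-null values were mostly the higher ones, with overlap. The difference was 0.11 (SE 0.041, limma adjusted p = 0.0747), and 0.13 in the further Fdft1 probe set. With arrays centred it was 0.15 and passed (limma adjusted p = 0.0172), and with the cortical level added as a covariate it was 0.01 (limma adjusted p = 0.839). Fdft1 lies on chromosome 14, as Rarb does, 519 protein-coding genes away from it, and a strain difference linked to the deletion was not tested.

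In the control module, Insig1 fell while the transcription factors and their escort did not pass. Insig1, the retention protein whose own gene is a classical SREBP target, read 9.90, 9.91, 9.82, 9.78 and 10.02 in Rarb-null arrays, against 9.96, 10.06 and 10.33 in WT arrays. Rarb-null replicate 5 lay within the WT range. The difference was -0.21 (SE 0.060, 95% interval -0.34 to -0.08, limma adjusted p = 0.0295), and the linear level fell by 13.4%. The call was not stable: Insig1 missed the threshold with arrays centred (-0.17, limma adjusted p = 0.0572) and without Rarb-null replicate 2, 3 or 4 (-0.21 to -0.18, limma adjusted p 0.0521 to 0.0754). Insig2, the isoform that does not depend on SREBP in the same way, had a difference of -0.07 (95% interval -0.15 to 0.01). Srebf2, the main driver of cholesterol synthesis genes, stood at 10.43 ± 0.05 in Rarb-null and 10.38 ± 0.07 in WT arrays (0.04). Srebf1, which favours fatty acid genes, was at -0.05 and Scap at 0.06, all with limma adjusted p of 0.179 or more.

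Promoters of the called genes are shown because 3 of them act in the same leg of one pathway, with Hmgcs1 as an uncalled gene of the other leg. Each is 250 bases before to 50 after a transcription start from RefSeq (GRCm38.p6), in the gene's own direction. Capitals mark CCAAT, the box bound by NF-Y, on either strand, and in Hmgcs1 also a match to TCACNCCAC, a sterol regulatory element-like motif. Of 31 genes, 25 had a promoter in the table. Dhcr7 has 3 listed starts, of which the one shown holds CCAAT and the other 2 do not.
Dhcr7 (chr7:143829964-143830263, + strand): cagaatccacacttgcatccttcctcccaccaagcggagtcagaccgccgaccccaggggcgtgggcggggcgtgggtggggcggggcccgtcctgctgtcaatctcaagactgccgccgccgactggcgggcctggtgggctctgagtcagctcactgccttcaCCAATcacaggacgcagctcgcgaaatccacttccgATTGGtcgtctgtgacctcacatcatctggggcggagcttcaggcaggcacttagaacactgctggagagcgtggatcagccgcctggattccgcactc
Msmo1 (chr8:64733529-64733828, - strand): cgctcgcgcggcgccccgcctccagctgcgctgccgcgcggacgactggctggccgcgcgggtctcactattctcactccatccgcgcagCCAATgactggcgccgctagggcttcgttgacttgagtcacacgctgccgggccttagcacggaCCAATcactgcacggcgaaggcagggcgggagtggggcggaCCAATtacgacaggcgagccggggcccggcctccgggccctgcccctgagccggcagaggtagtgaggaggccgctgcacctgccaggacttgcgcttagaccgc
Sc5d (chr9:42264251-42264550, - strand): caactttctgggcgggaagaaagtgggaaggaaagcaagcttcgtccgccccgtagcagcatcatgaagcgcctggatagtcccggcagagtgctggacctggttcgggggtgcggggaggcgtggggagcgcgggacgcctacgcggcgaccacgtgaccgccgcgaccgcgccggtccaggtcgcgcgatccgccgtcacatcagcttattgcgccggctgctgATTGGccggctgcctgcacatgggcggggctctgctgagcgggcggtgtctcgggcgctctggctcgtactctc
Insig1 (chr5:28071162-28071461, + strand): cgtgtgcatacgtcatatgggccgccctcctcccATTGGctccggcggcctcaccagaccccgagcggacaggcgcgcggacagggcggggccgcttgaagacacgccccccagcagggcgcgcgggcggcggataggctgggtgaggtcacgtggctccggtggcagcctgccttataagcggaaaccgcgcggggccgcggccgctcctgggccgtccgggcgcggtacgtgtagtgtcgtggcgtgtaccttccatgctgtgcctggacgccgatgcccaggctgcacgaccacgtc
Hmgcs1 (chr13:119690101-119690400, + strand): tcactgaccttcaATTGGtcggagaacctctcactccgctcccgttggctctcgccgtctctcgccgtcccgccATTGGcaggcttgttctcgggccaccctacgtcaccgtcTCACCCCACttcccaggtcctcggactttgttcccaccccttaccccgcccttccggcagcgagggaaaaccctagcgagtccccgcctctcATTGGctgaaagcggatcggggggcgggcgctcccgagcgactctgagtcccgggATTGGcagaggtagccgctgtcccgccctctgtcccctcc

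CCAAT was found in 21 of the 25 genes (84%), including all 4 called ones, and in 41.1% of the 27025 genes with a promoter in the table. A gene with several listed starts was counted when any of them held a match, as for Dhcr7. The 25 genes had 34 promoters and the 27025 genes 32851, of which 37.4% held CCAAT. Msmo1 held 3 such boxes, the Dhcr7 start shown 2, and Sc5d and Insig1 1 each. The sterol regulatory element-like letters were in 1 of the 25 (Hmgcs1) and in 1.44% of all genes. A direct repeat of AGGTCA with a 4-base gap, the DR4 pattern of LXR sites, was in 0 of the 25 and in 0.0148% of all genes. Direct repeats of GGTCA or of GTTCA starting 11 bases apart, a DR5-like pattern of retinoic acid receptor sites, were in 0 of the 25 and in 0.189% of all genes. These counts cover exact letters in this window only.

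Of the 6 uptake, efflux and removal genes 0 passed in limma, with 3 at an unadjusted p under 0.05 (Npc1, Abca1 and Abcg4). Over all 11963 genes tested, 19.6% were called and 4220 had an unadjusted p under 0.05 in limma. Whether these 6 genes differ from that background was not tested. Npc1, which moves cholesterol out of lysosomes, read 10.12, 10.12, 10.13, 10.14 and 10.15 in Rarb-null arrays, against 10.17, 10.20 and 10.27 in WT arrays. The genotypes did not overlap, but the difference was small (-0.08, SE 0.028, limma adjusted p = 0.059), or -5.44% on the linear scale. With the stricter filter on dim genes, which tests 7975 genes, it passed (limma adjusted p = 0.0465), and with arrays centred it was -0.04 (limma adjusted p = 0.359). Npc2, the soluble partner of Npc1, differed by -0.0045 (95% interval -0.09 to 0.08).

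Abca1 and Abcg1, the LXR-controlled exporters that load cholesterol onto lipoproteins, had differences of -0.09 (SE 0.034, limma adjusted p = 0.0828) and -0.05 (SE 0.030, limma adjusted p = 0.226). Abcg4, a related exporter of neurons and glia, pointed the other way (0.07, SE 0.032, limma adjusted p = 0.13). It passed with arrays centred (0.11, limma adjusted p = 0.0314). Cyp46a1, the neuronal hydroxylase that turns cholesterol into an oxysterol able to leave the brain, was 11.34 ± 0.05 in Rarb-null and 11.32 ± 0.06 in WT arrays (0.02, 95% interval -0.06 to 0.09). Among the 24 genes that did not pass, 22 had a 95% interval within a 1.2-fold change either way. The exceptions were Idi1 (down to -0.40) and Cyp51 (down to -0.31).

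Many of the genes had their highest value on the same array of a genotype. Rarb-null replicate 5 gave the highest Rarb-null value for 20 of the 28 genes and for 13 of the 17 synthesis enzymes. WT replicate 5 gave the highest WT value for 12 of the 28 and the lowest for 0, and WT replicate 6 gave the lowest for 10. The same counts were not made over all genes tested. A shift of the whole array was therefore not told apart from one of these genes. The mean level of the 10 genes from squalene to cholesterol was 9.11 in Rarb-null replicate 5 and 8.96 to 9.04 in the other Rarb-null arrays, against 9.05 to 9.20 in WT arrays. For the 7 genes from acetyl-CoA to squalene the ranges lay on top of each other, at 9.29 to 9.47 in Rarb-null and 9.27 to 9.42 in WT arrays. Rarb-null replicate 5 also had the highest cortical neuron marker level of all arrays (9.00) and the lowest projection neuron marker level (11.59). Without that array the same 4 genes were called, with Dhcr7 at -0.34, Msmo1 at -0.34, Sc5d at -0.19 and Insig1 at -0.24.

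**Figure D3:**
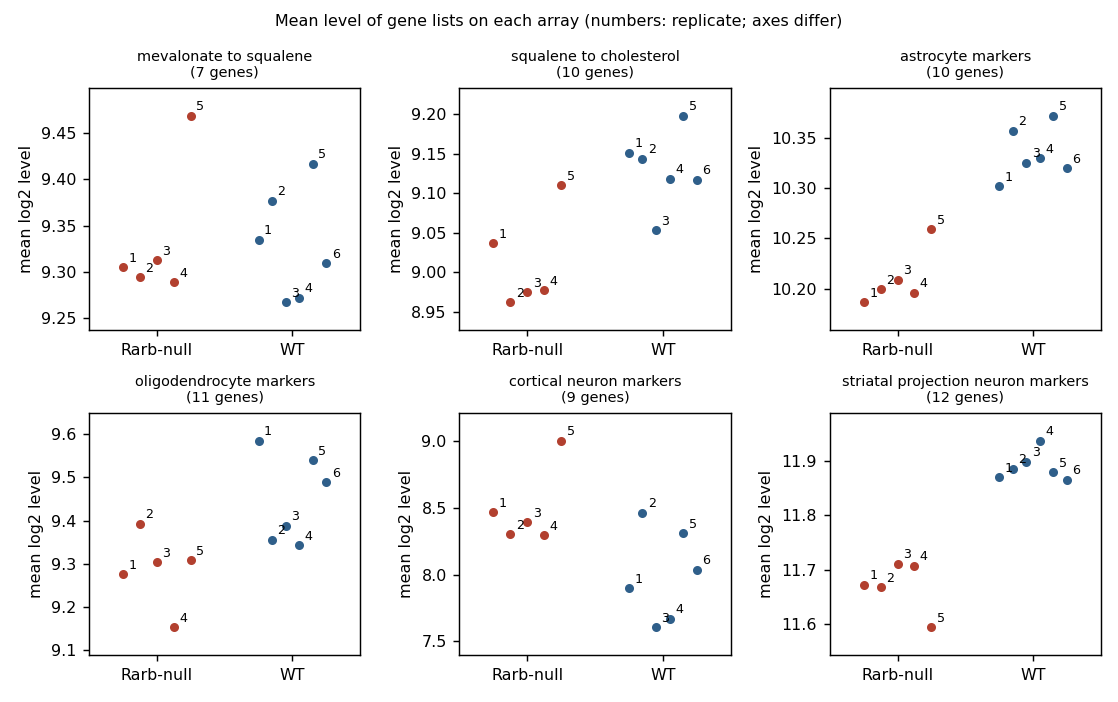
Mean log2 level per array (y axis, own range in each panel) of the 2 legs of synthesis and of 4 cell type marker lists, Rarb-null on the left and WT on the right, with the replicate number beside each point. The squalene to cholesterol genes and the glial markers are mostly lower in Rarb-null arrays, and Rarb-null replicate 5 stands above the other Rarb-null arrays for both legs.

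Some markers of the glia that make cholesterol were lower as well. Of 10 astrocyte markers 4 fell, 1 rose (Gfap, 0.27) and 5 did not pass, and their mean level ran from 10.19 to 10.26 in Rarb-null and from 10.30 to 10.37 in WT arrays, without overlap. Of 11 oligodendrocyte markers 5 fell, 0 rose and 6 did not pass, with mean levels of 9.15 to 9.39 in Rarb-null and 9.34 to 9.58 in WT arrays. Precursor (6 tested), microglial (6 tested) and endothelial (7 tested) markers gave 0 calls in limma (1, 2 and 1 at an unadjusted p under 0.05). Striatal projection neuron markers fell in 9 of 12 genes, and cortical markers rose in 3 of 8. With the oligodendrocyte level as a covariate 2 of the 28 genes were called, Dhcr7 (-0.35, limma adjusted p = 0.000828) and Msmo1 (-0.24, limma adjusted p = 0.0482). Sc5d (-0.22, limma adjusted p = 0.0842) and Insig1 (-0.13, limma adjusted p = 0.36) did not. With the cortical level as a covariate Dhcr7, Msmo1, Insig1 and Nsdhl (-0.15, limma adjusted p = 0.0432) passed and Sc5d did not (-0.21, limma adjusted p = 0.0631). The astrocyte level did not overlap between genotypes, which limits what a fit with both terms can tell apart. In that fit 0 of the 28 genes were lower and 3 higher (Mvk, Fdps and Fdft1), with Dhcr7 at -0.18 (limma adjusted p = 0.195), Msmo1 at -0.13 (limma adjusted p = 0.557), Sc5d at -0.24 (limma adjusted p = 0.293) and Insig1 at 0.16 (limma adjusted p = 0.427). Calls over all genes tested were 2341 without a covariate, and 810, 1266 and 802 with the oligodendrocyte, cortical and astrocyte levels.

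**Figure D4:**
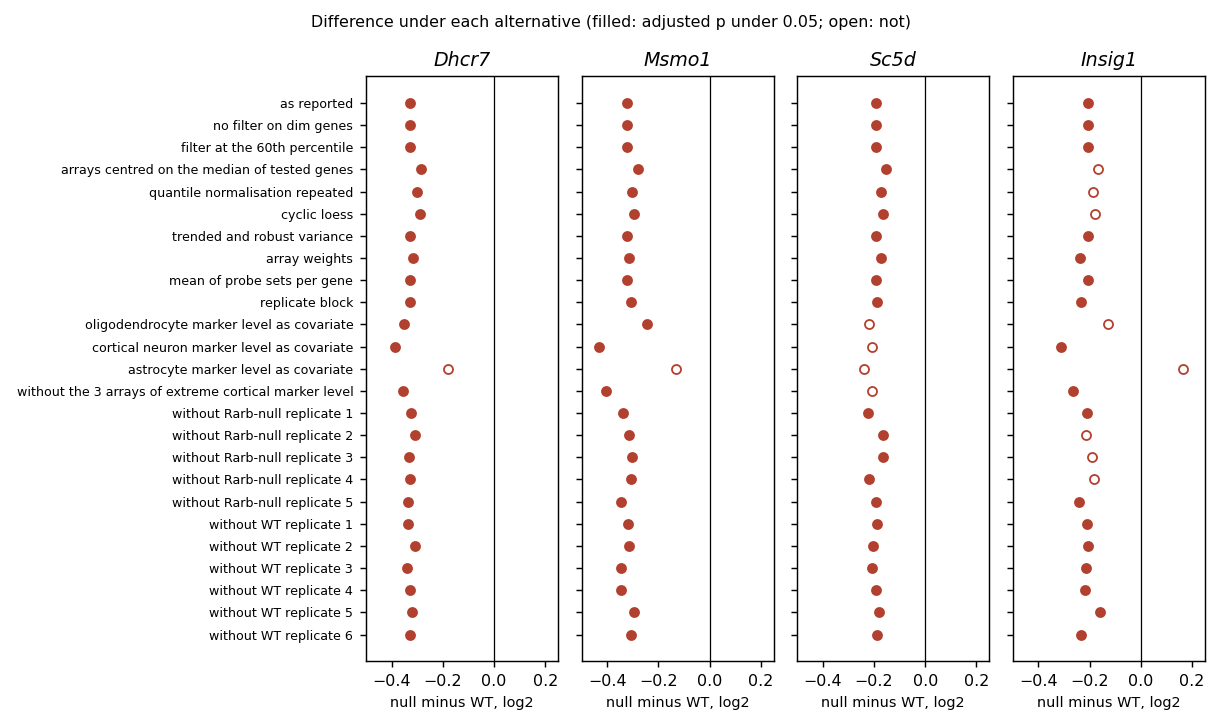
Difference in log2 expression (x axis, Rarb-null minus WT) of the 4 called genes under each alternative (y axis), with filled points where the adjusted p was under 0.05 and open points where it was not. Dhcr7 and Msmo1 are open only with the astrocyte marker level as a covariate, whereas Sc5d and Insig1 are open in several fits.

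Outside the 31 genes, 68 related sterol and lipid genes were tested in 7 lists, of which 25 fell and 4 rose. The share called was 42.6%, beside 19.6% of all genes, and the median difference was -0.07. The count was 21 to 29 when any 1 array was left out, 13 with the oligodendrocyte, 17 with the cortical and 5 with the astrocyte level as a covariate. These lists were chosen with earlier results of these data known, so a share above that of all genes cannot count as support. They were not compared with the 31 genes by a test.

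Lipoprotein uptake genes moved in both directions, with 3 falls and 2 rises among 8. Scarb1, the receptor that takes cholesterol from high-density lipoprotein, averaged 9.27 ± 0.11 in Rarb-null and 9.89 ± 0.07 in WT arrays (difference -0.62, SE 0.051, limma adjusted p = 2.74e-06). Sort1, the sorting receptor sortilin, fell by 0.28 (SE 0.034), and Vldlr, a receptor for lipoproteins and reelin, fell by 0.23 (SE 0.054). Lrp8, the other reelin and lipoprotein receptor, rose by 0.17 (SE 0.045), and Mylip, a ubiquitin ligase that degrades receptors of this family, rose by 0.13 (SE 0.035). With the cortical level as a covariate Vldlr (-0.15, limma adjusted p = 0.16), Lrp8 (0.10, limma adjusted p = 0.254) and Mylip (0.13, limma adjusted p = 0.104) missed the threshold. Mylip also missed it without Rarb-null replicate 3 or 4 (limma adjusted p = 0.0526 and 0.0523). With the astrocyte level as a covariate Scarb1 and Sort1 were not called, and 1 of these 8 genes was.

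Genes that carry sterols inside the cell gave 7 falls and 1 rise among 19. Stard5, a sterol-binding protein of the StAR family, had the largest difference of all genes tested (-2.06, SE 0.072), with 8.47 ± 0.12 in Rarb-null and 10.53 ± 0.15 in WT arrays. The oxysterol-binding protein genes Osbpl9 (-0.18, SE 0.033) and Osbpl6 (-0.18, SE 0.033) fell, and Osbpl1a rose by 0.20 (SE 0.049). Of this list 3 genes passed with each of the oligodendrocyte, cortical and astrocyte levels as a covariate, against 8 without. Osbpl9 missed the threshold with the oligodendrocyte and cortical levels (limma adjusted p = 0.0717 and 0.0582), Osbpl6 with the oligodendrocyte and astrocyte levels (limma adjusted p = 0.0876 and 0.203), and Osbpl1a with all of them (limma adjusted p 0.135 to 0.401) and without the 3 arrays of extreme cortical level (limma adjusted p = 0.0763). Lipoprotein and further transporter genes gave 3 falls and 1 rise among 9. Lcat, which esterifies cholesterol on lipoproteins, fell by 0.30 (SE 0.066), and the transporter gene Abca8b fell by 0.20 (SE 0.044). Pltp, a phospholipid transfer protein, rose by 0.21 (SE 0.057), with a limma adjusted p of 0.0592 when Rarb-null replicate 3 was left out. Lcat and Pltp were not called with the oligodendrocyte or the astrocyte level as a covariate. Abca8b was not called with the cortical or the astrocyte level, or without the 3 arrays of extreme cortical level.

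Fatty acid synthesis genes, which SREBP1 drives, gave 8 falls and 0 rises among 15, with a median of -0.11. Acly, which supplies the acetyl-CoA for fatty acids and cholesterol alike, stood at 10.35 ± 0.08 in Rarb-null and 10.58 ± 0.04 in WT arrays (-0.23, SE 0.040, limma adjusted p = 0.00182). The acetyl-CoA synthetase gene Acss2 fell by 0.31 (SE 0.059) and the desaturase gene Scd1 by 0.29 (SE 0.055). With the astrocyte level as a covariate 0 of these 15 genes were called, and with the oligodendrocyte level Scd1 (limma adjusted p = 0.0611) and Acss2 (limma adjusted p = 0.115) missed the threshold. In the processing and turnover of SREBP 2 of 7 genes fell, Paqr3, which tethers SCAP to the Golgi (-0.21, SE 0.037), and Mbtps1, the protease that makes the first cut in SREBP (-0.10, SE 0.030). Mbtps1 missed the threshold without Rarb-null replicate 2, 3 or 5 or WT replicate 4 and with arrays centred (-0.11 to -0.06). Its call was also lost with cyclic loess, with the cortical or astrocyte level as a covariate, and without the 3 arrays of extreme cortical level. Among further genes of the mevalonate route 1 of 6 fell, Nus1 of dolichol synthesis (-0.25, SE 0.052). Among oxysterol and sterol ester genes 1 of 4 fell, the lipase gene Lipe (-0.36, SE 0.047). With the astrocyte level as a covariate Paqr3, Nus1 and Lipe were not called, nor was Nus1 with the oligodendrocyte level.

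**Figure D5:**
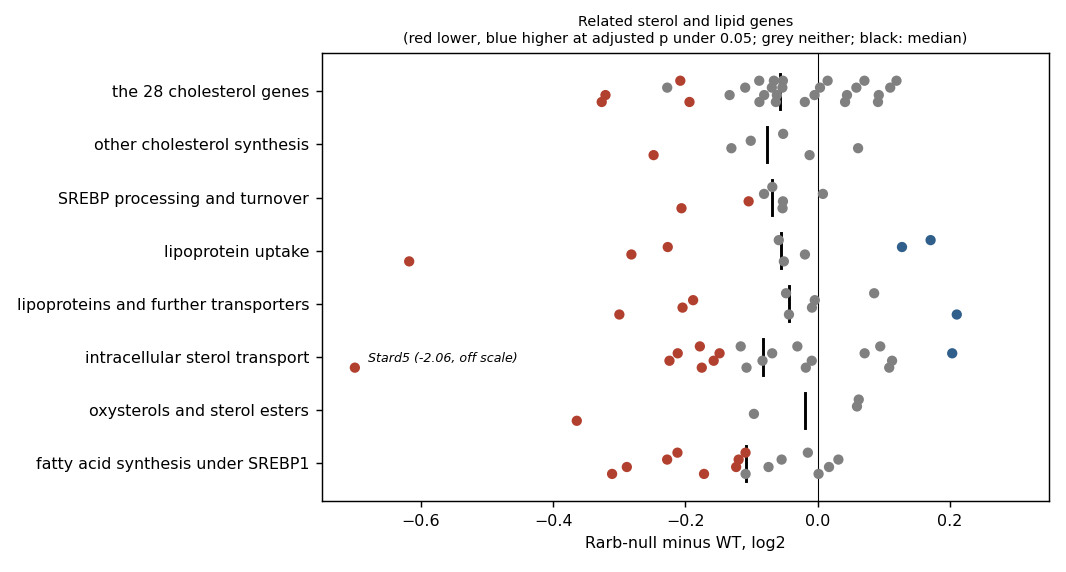
Difference in log2 expression (x axis, Rarb-null minus WT) of each tested gene in the cholesterol group and in 7 related lists (y axis), coloured red where lower, blue where higher and grey where not past an adjusted p of 0.05, with the list median in black. Red points number 8 of 15 in fatty acid synthesis, 3 of 8 in lipoprotein uptake and 7 of 19 in intracellular sterol transport, and Stard5 (-2.06) lies off the scale and is drawn at its left end.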

How the data were processed

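The deposited values are log2 expression after robust multi-array analysis (RMA), per the labels' descriptions and the submitters' processing notes. The log base was inferred from the range. RMA subtracts background, equalises array distributions and compresses changes of dim probe sets. Software version, scan batches and signal over background are unknown here. RNA (100 ng) came from 0.5 mm punches of 300 µm sections, per the labels' protocols. Array medians ran from 7.08 to 7.11 in Rarb-null and from 7.02 to 7.06 in WT arrays, with pairwise correlations of 0.989 to 0.997 and no repeated array.

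Of 35556 probe sets, 21789 had 1 symbol in the platform annotation, 1621 had several and 12146 were not listed. Symbols were matched through Entrez identifiers for 21698, and gene order and promoters came from RefSeq tables of GRCm38.p6. No build is named for the array annotation, so its coordinates were not used here. The filter kept genes whose mean level exceeded the 40th percentile (6.99), and these were tested with limma 3.58.1 in R 4.3.3 (lmFit, eBayes, no covariates), with Benjamini-Hochberg adjustment. The procedure was tested on simulated data. Figures used matplotlib 3.10.9.

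The members, lists, markers and tests were chosen with earlier results of these data known. All measured members are named, with up to 3 called genes of smallest p per related list. Lrp8, Mylip and Osbpl1a were named after their values were seen. Alternatives changed the filter, scaling, normalisation, variance model, weights, probe set summary, replicate block, marker covariates and threshold, or left out arrays.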

Additional observations from a re-analysis of the deposited data

Results flagged for a closer look

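In 3 of 58 sets of 5 or 6 arrays (29 genes in each genotype), 1 array lay far from the others of its genotype, where chance alone gives about 5%. Hsd17b7 read 8.33 in Rarb-null replicate 2 and 8.51 to 8.52 in the other Rarb-null arrays. Tm7sf2 read 8.48 in Rarb-null replicate 5 and 8.32 to 8.36 in the other Rarb-null arrays. For Insig1, WT replicate 5 stood at 10.33 and the remaining WT arrays between 9.96 and 10.10. Without that array its difference was -0.16 (limma adjusted p = 0.0368).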

How the results depend on the processing

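Of the 4 called genes, Dhcr7 and Msmo1 passed in 23 of 24 alternatives, Sc5d in 20 and Insig1 in 16. Of the 24 uncalled genes, 16 were called in no alternative, and 12 changed sign in at least 1. The count of called genes among the 28 was 2 with the oligodendrocyte level as a covariate, 2 at an adjusted p under 0.01 and 8 under 0.10, and 3 to 5 when any 1 array was left out. Over all genes it was 810 with the oligodendrocyte, 1266 with the cortical and 802 with the astrocyte level as a covariate, 970 at 0.01, 1347 without the 3 arrays of extreme cortical level, and 1547 (without Rarb-null replicate 3) to 2576 when 1 array was left out. In the 7 related lists it was 13, 17 and 5 with the oligodendrocyte, cortical and astrocyte covariates, 16 at 0.01, and 21 to 29 when 1 array was left out. With the astrocyte covariate, whose levels do not overlap between genotypes, Insig1 (0.16), Lcat (0.13) and Scd1 (0.062) changed direction, none past the threshold. The share of higher calls over all genes was 38.7% as deposited and 64.1% with arrays centred. A block for the replicate number, fitted without WT replicate 6, called 5 of the 28 genes (Idi1 joined), 2872 genes in all and 30 in the related lists. Same-numbered arrays had correlated deviations from their genotype means in 4 of 5 pairs (0.19 to 0.43) but not in the other (0.06). Only Rarb-null replicates 3 and 4 correlated best with the WT array of their own number. The numbers were not taken as pairs, and these correlations do not settle whether same-numbered arrays shared a batch. Signal over background could not be measured.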

Other observations

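Lists of related genes held further calls, named here after their values were seen. Among intracellular sterol carriers, Scp2, a sterol carrier of peroxisomes, fell by 0.22 (SE 0.055), Osbpl8 by 0.21 (SE 0.047), Osbpl11 by 0.16 (SE 0.051) and Osbp itself by 0.15 (SE 0.037). Among fatty acid genes, Mid1ip1, an activator of acetyl-CoA carboxylase, fell by 0.21 (SE 0.040), the elongase gene Elovl5 by 0.17 (SE 0.036), the desaturase genes Fads1 and Fads2 each by 0.12 (SE 0.034 and 0.038), and the acyltransferase gene Gpam by 0.11 (SE 0.033). Fasn, the fatty acid synthase gene, differed by -0.01 (SE 0.029, limma adjusted p = 0.748). The transporter gene Abca5 fell by 0.19 (SE 0.051).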
